A study of Mus musculus with 4 samples.

Results

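The polyamine genes described here are the 10 rows of the deposited tables with the symbols Amd1, Amd2, Odc1, Sat1, Srm, Sms, Oaz1, Oaz2, Azin1 and Paox, out of 23107 genes listed. The set was selected on the scaled counts of Amd1 and Amd2 in these 4 libraries and filled up with the other enzymes and antizyme proteins of the pathway, so differences of its members between the groups are given as a description and no test is read from them. All 10 passed the filter on low values (10 or more scaled counts in 2 or more libraries), as did 14297 of all genes. RNA was sequenced from tdTomato-positive, PTHrP-marked cells that were sorted from the dental follicle, the connective tissue around a forming tooth, of mouse mandibular molars. The cKO group (Ptch1(-/-), n = 2 libraries, cKO_0 and cKO_1) lacked both working copies of the hedgehog receptor gene Ptch1 in the targeted cells, and the cHet group (Ptch1(+/-), n = 2 libraries, cHet_0 and cHet_1) lacked 1 copy. Mice of both groups received tamoxifen on postnatal day 3 and were sampled on postnatal day 8. The sources used here name neither the Cre driver nor whether animals were pooled. Unless FPKM is named, values are scaled counts, that is, counts per gene after the authors' division by a library factor. A difference is always the mean log2(scaled count + 3) of cKO less that of cHet, with limma's standard error (SE).

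Polyamines are small cations that bind nucleic acids and are needed by growing cells. Ornithine decarboxylase, encoded by Odc1, makes putrescine, and S-adenosylmethionine decarboxylase, encoded by Amd1 and Amd2, makes the aminopropyl donor that spermidine synthase (Srm) and spermine synthase (Sms) add to it. Antizymes (Oaz1, Oaz2) bind ornithine decarboxylase and send it to the proteasome, the antizyme inhibitor (Azin1) binds antizymes, and Sat1 and Paox acetylate and oxidise polyamines back to shorter forms. In mouse cerebellar progenitors, hedgehog signalling is known to raise ornithine decarboxylase protein, and Odc1 is a known target of the transcription factor Myc.

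The libraries held scaled totals of 69361760 to 71228342, which corresponds to 62300000 to 85700000 reads on genes. Ptch1 itself stood at 22420 and 23341 in cKO, against 12867 and 5438 in cHet, and Gli1, the pathway's usual readout, at 6388 and 6955 in cKO, against 4132 and 3350 in cHet. The Ptch1 value covers the whole gene and does not show whether an exon was removed. Library cHet_1 stood apart: 15.2% of the genes tested were below 10% of their value in each of the other 3 libraries there, against 0.399% to 2.07% in the others. Follicle markers (6 of 6 found, with Col1a1 alone at 2099810 to 3673200, and Pthlh, which encodes PTHrP, at 8613 to 15879) summed to 2219522 to 2259314 in cKO and 3611334 to 3836375 in cHet. Col1a1 made up most of each sum. The ratio of means, cKO over cHet, was 0.599 for Col1a1, 0.475 for Postn and 0.756 for Pdgfra, with no overlap between the groups. Prrx1 (0.861), Pthlh (0.831) and Runx2 (1.04) overlapped. Dental epithelium markers (6 of 6, led by the enamel protein genes Amelx and Ambn) summed to 907485 and 2513965 in cKO, against 526127 and 1216657 in cHet, so the sorted cells also gave transcripts of epithelium in every library. The list did not share a direction. By the ratio of means, cKO over cHet, Amelx (1.88), Ambn (2.42), Krt5 (1.39) and Krt14 (1.17) were higher, and Epcam (0.223) and Cdh1 (0.547) lower. Endothelial, leukocyte and Schwann cell lists (5 of 5 each) were lower in sum, with Pecam1, Emcn and Ptprc at 0 in a library each. Endothelial markers summed to 2827 and 6341 in cKO, against 2184 and 4132 in cHet. Leukocyte markers came to 395.4 and 5591 in cKO, against 862.4 and 3058 in cHet. The Schwann sums were higher in both cKO libraries, at 5380 and 16720, against 2100 and 519.1 in cHet. Erythroid markers (4 of 5) summed to 3552 and 12617 in cKO, against 3387 and 2358 in cHet, and cycling genes (5 of 5) to 29394 and 24507 in cKO, against 23758 and 17963 in cHet. The part of these cells in the values below was not tested, and in bulk RNA fewer cells of a type cannot be told apart from less RNA per cell.

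Amd1 and Amd2 are the pair with the widest difference among the 10 genes and also the pair whose sequences are hardest to tell apart. Amd1 lies on chromosome 10 (40287458 to 40302186, minus strand, mm10) with 8 exons in its main transcript, and Amd2 on the same chromosome (35708675 to 35711892, minus strand) as a single exon. The GENCODE transcripts, of 3204 and 3218 bases, were identical at 3190 of 3204 aligned bases (99.56%), with 14 substitutions and 4 internal bases without a partner. Of the substitutions, 1 lay in the 5′ untranslated region, 1 in the 1005-base coding region and 12 in the 3′ untranslated region, and the longest identical run was 930 bases. Of all 50-base windows in the Amd1 transcript, 86.1% occurred unchanged in the Amd2 transcript, so a fragment that misses these positions carries nothing to place it. The 1 coding difference is G1124C (Amd1 base, position from 1 at the 5′ end of the Amd1 transcript, Amd2 base). It is shown in capitals, amid flanking bases that the copies share, for Amd1 at chr10:40290141-40290231 and Amd2 at chr10:35710719-35710809 (mm10, minus strand, coding):
Amd1: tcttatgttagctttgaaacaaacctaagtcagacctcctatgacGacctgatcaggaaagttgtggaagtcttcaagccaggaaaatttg
Amd2: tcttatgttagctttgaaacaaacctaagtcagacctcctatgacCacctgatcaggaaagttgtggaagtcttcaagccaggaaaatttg

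**Figure D1:**
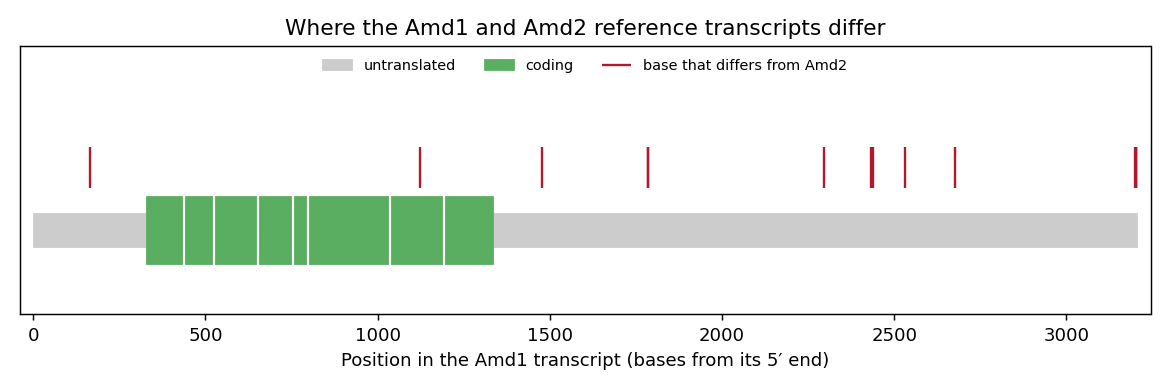
Map of the Amd1 reference transcript, with its position in bases on the x axis, untranslated parts in grey, the coding part in green, exon ends as white lines and the 14 bases that differ from Amd2 as red lines. Of the 14, 1 falls in the coding part and 12 in the 3′ untranslated part, where neighbouring bases merge into thicker lines at this scale.

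Upstream of the transcripts the likeness stops. The start regions of both genes are shown because they mark where the copies begin to match: 150 bases before and 30 bases after each start, from RefSeq (GRCm38.p6, minus strand), for Amd1 at chr10:40302159-40302338 and Amd2 at chr10:35711862-35712041. The capitals mark the longest run that these stretches have in common, 28 bases long.
Amd1: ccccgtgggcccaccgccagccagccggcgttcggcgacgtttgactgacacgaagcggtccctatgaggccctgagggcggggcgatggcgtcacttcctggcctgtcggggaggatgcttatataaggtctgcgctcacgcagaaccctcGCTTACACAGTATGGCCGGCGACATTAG
Amd2: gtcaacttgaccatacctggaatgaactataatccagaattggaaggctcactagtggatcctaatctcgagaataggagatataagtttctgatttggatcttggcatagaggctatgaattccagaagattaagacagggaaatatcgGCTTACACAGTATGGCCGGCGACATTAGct
The shared run began 2 bases after the RefSeq start of Amd1 and at the start of Amd2, and it ended where the stretch shown for Amd1 ends. Of the 150 bases before the start, 44 were the same in both genes when laid side by side without gaps.

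The tables placed nearly all reads of the pair on Amd2 in the cKO libraries and nearly all on Amd1 in the cHet libraries. Amd1 was listed at 1.98 in cKO_0 and 1.69 in cKO_1, against 2622 in cHet_0 and 1699 in cHet_1. Both cKO libraries were thus close to 0 and both cHet libraries were over 1000. Amd2 was listed at 3546 in cKO_0 and 4768 in cKO_1, against 168.7 in cHet_0 and 0.682 in cHet_1. The groups did not overlap for either copy, and the direction was opposite. Amd2 took 99.94% and 99.96% of the pair's sum in cKO_0 and cKO_1, against 6.05% and 0.0401% in cHet_0 and cHet_1. The difference was -8.77 (SE 2.17) for Amd1 and 7.35 (SE 2.10) for Amd2. With values this close to 0, its size depends on the pseudocount, and for Amd2 also on the library (4.58 without cHet_1, 10.13 without cHet_0). As a plain ratio, mean Amd1 in cKO was 0.0849% of that in cHet. Its cKO values correspond to only 1.83 and 1.49 reads in cKO_0 and cKO_1. These are fractions of reads and not counts, so no counting interval is given for the ratio. Of the 23107 genes, Amd1 was the only 1 with a value under 10 in both cKO libraries and over 1000 in both cHet libraries, limits chosen after its values were seen. In the other direction the same limits also held for 1 gene, Prg2. It stood at 2804 and 1691 in cKO_0 and cKO_1, against 7.29 and 9.42 in cHet_0 and cHet_1.

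The number of reads behind a value can be read from its step. Below 100000, 98.9% to 99.2% of a library's values fell on multiples of 1 step (to within 0.1 of a step), and that step is the worth of 1 read. Amd1 came to 1.83 and 1.49 reads in cKO_0 and cKO_1, against 3237.65 and 1623.35 in cHet_0 and cHet_1, and Amd2 to 3291.17 and 4201.51 reads in cKO_0 and cKO_1, against 208.35 and 0.65 in cHet_0 and cHet_1. Neither copy was at a whole number of reads in any library. Their sum was whole in all 4, at 3293 and 4203 reads in cKO_0 and cKO_1, against 3446 and 1624 reads in cHet_0 and cHet_1. Of the other members, 7 were at whole reads in every library, and only Oaz1 was not. How the reads of such copies were assigned is stated nowhere in the sources used here, and its part in the opposite levels of Amd1 and Amd2 was not tested.

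Summed, the S-adenosylmethionine decarboxylase genes stood higher in cKO, with a difference far smaller in size than that of either copy, of which Amd1 was lower and Amd2 higher. Amd1 plus Amd2 came to 3548 in cKO_0 and 4769 in cKO_1, against 2790 in cHet_0 and 1700 in cHet_1. The groups did not overlap, with cHet_1 lowest, and the means were 4159 ± 864 in cKO and 2245 ± 771 in cHet (SD, n = 2 each), a ratio of 1.85. The difference of 0.92 (SE 0.47) was 0.56 without cHet_1 and 1.27 without cHet_0. In FPKM, which divides by transcript length and library size, the sum overlapped between the groups, at 16.4 and 8.28 in cKO_0 and cKO_1, against 13.4 and 2.51 in cHet_0 and cHet_1. The FPKM table carries a split of its own: 1 FPKM of Amd1 stood for 217 and 578 scaled counts in cKO_0 and cKO_1, and for 209 and 677 in cHet_0 and cHet_1. Over all genes tested the median was 194 and 319 in cKO_0 and cKO_1, and 192 and 342 in cHet_0 and cHet_1, so FPKM values of the libraries numbered 0 and 1 are not on the same footing. The cause was not tested. Below, FPKM serves to order genes by level, and log2(FPKM + 1) is 1 of the alternative settings, both with this limit.

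**Figure D2:**
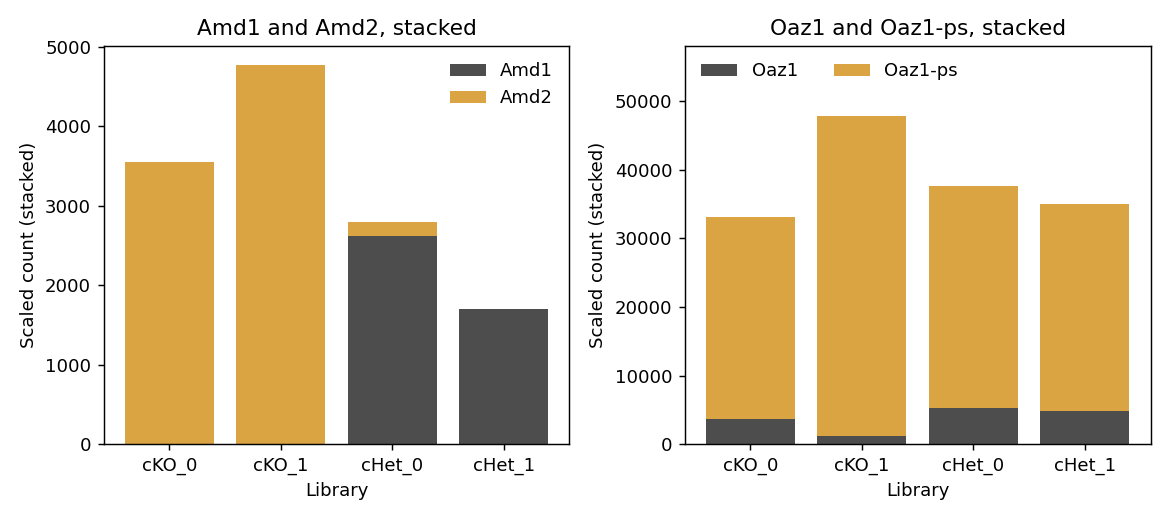
Scaled counts in each library, stacked so that a bar's height is the sum of the near-identical pair: Amd1 (dark) and Amd2 (light) on the left, Oaz1 (dark) and its pseudogene Oaz1-ps (light) on the right. Amd2 fills the bars of cKO_0 and cKO_1 and Amd1 nearly fills those of cHet_0 and cHet_1, while Oaz1-ps is the larger share in all 4 libraries.

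Odc1, the entry enzyme (chromosome 12, 17544794 to 17551505), overlapped between the groups. Its scaled counts were 10085 in cKO_0 and 17153 in cKO_1, against 17407 in cHet_0 and 11457 in cHet_1. Each group held a high and a low library, with cKO_1 and cHet_0 nearly equal. The means were 13619 ± 4997 in cKO and 14432 ± 4207 in cHet (SD, n = 2 each), and the difference of -0.10 (SE 0.34) changed sign with the library left out, from -0.49 without cKO_1 to 0.28 without cKO_0. Part of the Odc1 transcript is also found elsewhere: 42.2% of its 50-base windows occurred in transcripts of other annotated genes, most often Gm7993 (20.3%). Unlike the Amd copies, Odc1 was at whole reads in each library. Relative to Odc1, the Amd sum was 0.352 and 0.278 in cKO_0 and cKO_1, against 0.16 and 0.148 in cHet_0 and cHet_1, with no overlap between the groups.

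The synthases that extend putrescine did not separate the groups either. Srm (chromosome 4, 148591503 to 148594993) stood at 10177 in cKO_0 and 7241 in cKO_1, against 13044 in cHet_0 and 6067 in cHet_1, with the highest and the lowest library both in cHet (difference -0.05, SE 0.40). Sms (chromosome X, 157443855 to 157492287) stood at 2119 in cKO_0 and 1837 in cKO_1, against 1441 in cHet_0 and 1878 in cHet_1 (difference 0.26, SE 0.59). The 4 Sms values lay within 1.47-fold of each other. In scaled counts, which do not allow for length, Srm was at 4.8 times Sms in cKO_0 and 3.94 times in cKO_1. In cHet_0 and cHet_1 it was at 9.05 and 3.23 times. That ratio was highest in cHet_0, the library with the most Srm and the least Sms. In FPKM it was higher in cKO_1 (Srm 101.7, Sms 2.43) than in cHet_0 (Srm 148, Sms 6.47).

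Among the regulators of ornithine decarboxylase, Oaz1 is the other gene with a near-identical copy. Oaz1 (chromosome 10, 80826656 to 80829290) has a processed pseudogene, Oaz1-ps, on chromosome 17 (17345456 to 17346140, minus strand). The GENCODE copy of Oaz1-ps matched 683 of 684 aligned bases of the Oaz1 reference transcript (99.85%), with 1 base without a partner and 1 substitution, G199C (Oaz1 base, position from 1 at the 5′ end of that transcript, Oaz1-ps base). The capitals mark it below, for Oaz1 at chr10:80826864-80826904 (plus strand, coding) and Oaz1-ps at chr17:17345996-17346036 (minus strand), both mm10:
Oaz1: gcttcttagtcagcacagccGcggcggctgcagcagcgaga
Oaz1-ps: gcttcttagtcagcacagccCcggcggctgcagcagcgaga
Oaz1 stood at 3723 in cKO_0 and 1137 in cKO_1, against 5265 in cHet_0 and 4877 in cHet_1, so it was lower in both cKO libraries (difference -1.30, SE 0.59; -0.44 without cKO_1). Oaz1-ps stood at 29390 in cKO_0 and 46640 in cKO_1, against 32342 in cHet_0 and 30093 in cHet_1. The pseudogene row thus held far more reads than the gene, and was highest in cKO_1, where the gene was lowest. Again neither row was at whole reads in any library and the sum was, within 0.1 of a read, in all 4. The sum was 33113 in cKO_0 and 47777 in cKO_1, against 37607 in cHet_0 and 34970 in cHet_1, and it overlapped between the groups (difference 0.13, SE 0.26). Oaz1 took 11.2% and 2.38% of that sum in cKO_0 and cKO_1, against 14% and 13.95% in cHet_0 and cHet_1.

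Oaz2 and Azin1, in contrast, were among the steadiest members. Oaz2 (chromosome 9, 65668001 to 65690300) stood at 11326 in cKO_0 and 13820 in cKO_1, against 12165 in cHet_0 and 13198 in cHet_1 (difference -0.02, SE 0.26), a range of 1.22-fold over the 4 libraries. Azin1 (chromosome 15, 38487427 to 38519266) stood at 7045 in cKO_0 and 7076 in cKO_1, against 7043 in cHet_0 and 8207 in cHet_1 (difference -0.11, SE 0.29), a range of 1.17-fold. Both ranges include cHet_1, the library that stood apart. The ratio of Azin1 to Oaz2 in scaled counts was 0.622 and 0.512 in cKO_0 and cKO_1, against 0.579 and 0.622 in cHet_0 and cHet_1.

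Of the breakdown enzymes, Sat1, the spermidine and spermine acetyltransferase (chromosome X, 155213132 to 155216449), stood at 1695 in cKO_0 and 3662 in cKO_1, against 2819 in cHet_0 and 1633 in cHet_1 (difference 0.22, SE 0.60). Its high libraries were cKO_1 and cHet_0, as for Odc1, and the difference changed sign with the library left out, from -0.34 without cKO_1 to 0.77 without cKO_0. Paox, the oxidase that acts on acetylated polyamines (chromosome 7, 140115799 to 140137224), stood at 1230 in cKO_0 and 852.2 in cKO_1, against 1147 in cHet_0 and 5.23 in cHet_1. Its value in cHet_1 corresponds to 5 reads, and the other 3 libraries lay close together. The difference of 3.40 (SE 2.39) was -0.16 without cHet_1. Amd2 and Paox were the members below 10% of every other library in cHet_1, 2 of 10, where 15.2% of all genes tested were.

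**Figure D3:**
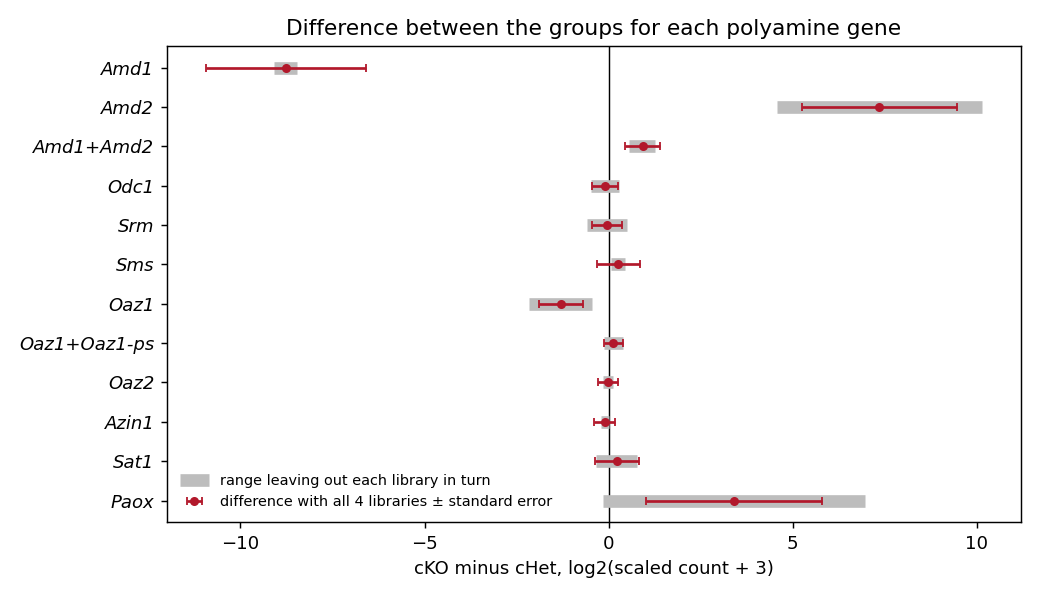
Difference between the groups, cKO minus cHet in log2(scaled count + 3), for each polyamine gene and for the sums of the near-identical pairs. Points are the values from all 4 libraries with their standard error, and grey bars span the values when each library is left out in turn; Amd1 (-8.77) and Amd2 (7.35) lie far out on opposite sides, whereas their sum is at 0.92 and Oaz1 with Oaz1-ps at 0.13.

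Levels of different genes were set side by side per length, in FPKM. The FPKM footing of libraries numbered 0 and 1 differed by gene, so a median over the libraries pools unlike scales. In cKO_0 and cKO_1, 1 FPKM stood for 61.8 and 61.7 scaled counts of Oaz1, but for 233 and 757 of Sms. By the median FPKM over the 4 libraries, the order was Srm (110.4), Oaz2 (82.6), Oaz1 (71.5), Odc1 (59.5), Sat1 (25.6), Azin1 (13.6), the Amd sum (10.8), Paox (7.97) and Sms (4.45). All neighbours in this order had overlapping ranges. Within single libraries, Srm was above Oaz2, Odc1 above Sat1, Sat1 above Azin1 and the Amd sum above Paox in 4 of 4, and the other neighbours changed places. The FPKM of Oaz1 leaves out the reads placed on Oaz1-ps, which was listed at 537 to 862 FPKM.

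**Figure D4:**
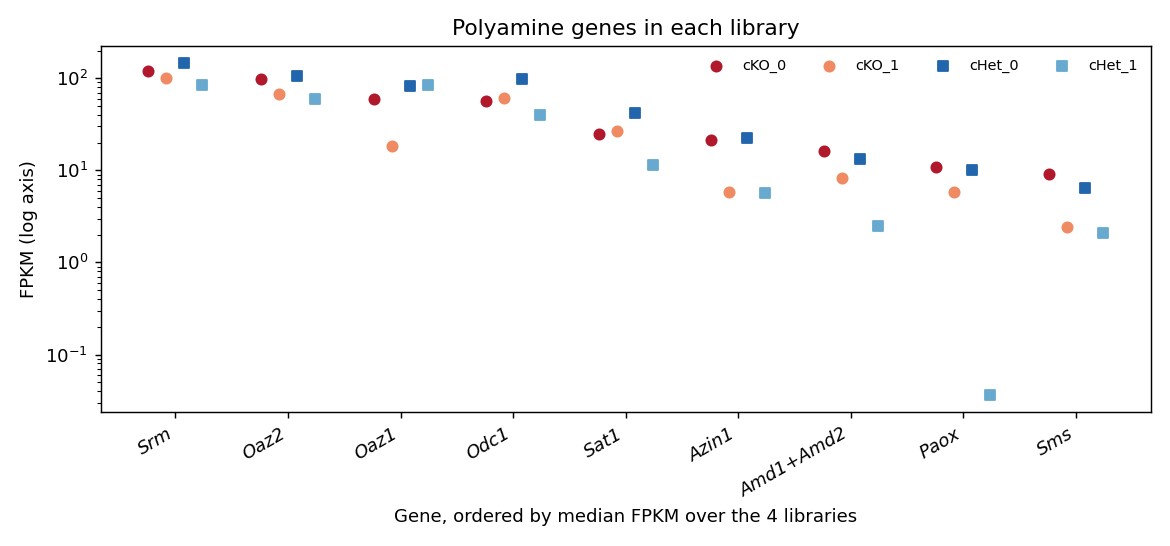
FPKM on a log axis for each polyamine gene, with Amd1 and Amd2 summed, in the 2 cKO libraries (circles) and the 2 cHet libraries (squares), ordered by the median over the 4 libraries. Srm leads with 84.6 to 148 FPKM, the groups are mixed for most genes, and Paox in cHet_1 lies alone at 0.0359 FPKM.

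Across the whole table, limma called 0 of 14297 genes (0%) in either direction at a Benjamini-Hochberg adjusted p under 0.05, with 220 higher and 213 lower in cKO at an unadjusted p under 0.05, and no other tool was run. Leaving out a library leaves its group with a single one, so the spread then comes from the other group alone. Calls of such fits are therefore not read as results. Their counts are listed only within the range over the alternative settings at the end. Among the 10 polyamine genes, the groups did not overlap for Amd2 on the higher side and for Amd1 and Oaz1 on the lower side, where 32.2% of all genes tested did not overlap (18.0% higher, 14.2% lower). The median difference of the 10 was -0.03, against 0.12 over all genes tested, and the median size of the difference, sign aside, was 0.24, against 0.56.

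Genes of the wider pathway were taken from fixed lists, of which 28 of 38 matched genes passed the filter on low values. Limma called 0 of these 28 in either direction, and 0 also at an unadjusted p under 0.05. In 6 of them both cKO libraries lay above both cHet libraries and in 2 below, where 18.0% and 14.2% of all genes tested did so. The median difference was 0.20, against 0.12 over all genes tested. Of all 14297 genes tested, 8047 had a positive and 6250 a negative difference, to be set beside the signs given per list below. Of these lists, 5 genes (Atp13a2, Dhps, Mtr, Mtrr, Mycn) were below 10% of every other library in cHet_1. That is 17.9% of the 28, where 15.2% of all genes tested were.

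In the interconversion and uptake list, 9 of 17 matched genes were tested, 5 with a positive and 4 with a negative difference. Atp13a2, a lysosomal polyamine exporter, stood at 5851 and 7455 in cKO_0 and cKO_1, against 5341 and 117.2 in cHet_0 and cHet_1 (difference 3.04, SE 1.45). Atp13a3, a related transporter tied to polyamine uptake, went the other way at 1924 and 1593 in cKO_0 and cKO_1, against 2156 and 8480 in cHet_0 and cHet_1 (difference -1.29, SE 0.67). In both cases cHet_1 was the library far from the other 3. Slc18b1, a vesicular polyamine transporter listed under another symbol, differed by 0.43 (SE 0.41) and Slc12a8, a solute carrier at 129.6 or less in every library, by -2.59 (SE 2.60). The oxidase gene Smox, which acts on spermine and was named after its values were seen, stood at 3256 and 5840 in cKO_0 and cKO_1, against 4307 and 3415 in cHet_0 and cHet_1, with its high libraries in the same places as Odc1 and Sat1.

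Spermidine also serves to make hypusine, the modified residue of the translation factor encoded by Eif5a. All 4 genes of that list were tested, 3 with a positive and 1 with a negative difference. Dohh, the hydroxylase of the second step, stood at 2446 and 2176 in cKO_0 and cKO_1, against 1249 and 1235 in cHet_0 and cHet_1 (difference 0.89, SE 0.60). It lay close together within each group, but the limma adjusted p was 0.913. Dhps, the synthase of the first step, stood at 1142 and 2005 in cKO_0 and cKO_1, against 1619 and 15.7 in cHet_0 and cHet_1, with cHet_1 again far below the other 3 libraries (difference 3.12, SE 2.06). Eif5a (-0.13, SE 0.23) and Eif5a2 (0.10, SE 0.77) overlapped between the groups.

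The decarboxylase uses S-adenosylmethionine, and the synthases release methylthioadenosine, which the methionine salvage enzymes recycle. Of 13 genes in the methionine list, 11 were tested, 8 with a positive and 3 with a negative difference, and limma called 0. Mtap, the first salvage enzyme, stood at 5552 and 4725 in cKO_0 and cKO_1, against 4195 and 2271 in cHet_0 and cHet_1 (difference 0.73, SE 0.43). Ahcy, which clears S-adenosylhomocysteine, stood at 3532 and 3442 in cKO_0 and cKO_1, against 2226 and 1941 in cHet_0 and cHet_1 (difference 0.75, SE 0.45). Both were higher in each cKO library than in each cHet library. Enoph1, a later salvage enzyme, stood at 2665 and 2043 in cKO_0 and cKO_1, against 3384 and 4174 in cHet_0 and cHet_1 (difference -0.69, SE 0.44), so members of the route did not share a direction. Mtrr, the reductase of methionine synthase, differed by 2.28 (SE 1.83), with 34.5 in cHet_1 and 1048 to 1410 elsewhere.

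Of the Myc family list, all 4 genes were tested, 1 with a positive and 3 with a negative difference, and limma called 0. Myc stood at 5058 and 14109 in cKO_0 and cKO_1, against 10142 and 8456 in cHet_0 and cHet_1 (difference -0.13, SE 0.46). As for Odc1, cKO_0 was the lowest library, but the order of the others differed. Mycn stood at 686.3 and 784.1 in cKO_0 and cKO_1, against 1131 and 4.19 in cHet_0 and cHet_1, a difference of 3.03 (SE 2.50) with cHet_1 far below the other 3 libraries. Max (-0.33, SE 0.50) and Mycl (-0.19, SE 0.43) overlapped between the groups.

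The genes most like the Amd sum in pattern were sought among 8954 others whose scaled counts averaged 1000 or more, by the root mean square difference of the centred log2 values over the 4 libraries. They were Alad (0.019), Paqr4 (0.044) and Nog (0.055). Alad stood at 6091 and 8160 in cKO_0 and cKO_1, against 4632 and 2891 in cHet_0 and cHet_1. For Odc1 the nearest were Sav1 (0.041), Hmgcs1 (0.052) and Ccdc25 (0.054). With 4 libraries many genes come close to any pattern, and the likeness is given as a description.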

How the data were processed

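Per the labels' protocols, RNA of sorted cells was isolated with PicoPure, amplified with SMART-Seq v4 and made into libraries with Nextera XT. The submitters' processing notes name, without roles, the mm10 build with Bowtie2 (2.2.1) and TopHat2 (2.0.13), DESeq2 and HTSeq, Cuffdiff and Cufflinks, and FastQC, and do not state whether strand was used. The deposited scaled counts are treated as a signal, since the authors had scaled the counts of each library before deposit. The deposited FPKM values are the authors' values relative to both the length of the transcript and the size of the library. Left out were 16 columns, in 4 tables, whose names fit no labelled sample. Columns number libraries 0 and 1 and titles 1 and 2, so columns were given a group only. The labels do not tie libraries to separate animals: a p-value here reflects spread among libraries, possibly technical.

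Values as log2(scaled count + 3), for the 14297 genes with 10 or more in 2 or more libraries, were fitted in limma (3.58.1, under R 4.3.3) with trended variance, two-sided, Benjamini-Hochberg adjusted over all, threshold 0.05, and tested on simulated data. No count test was run, since the values are not whole reads throughout. Members, lists and the rule for named genes (all members, the 4 lowest p per pathway list, the 3 nearest patterns) were chosen with earlier results of these data known. Gene positions and transcripts are from GENCODE vM21 and start regions from RefSeq. Transcripts were aligned with Biopython (1.88), and 50-base windows were compared exactly, on both strands for the search over other genes.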

Additional observations from a re-analysis of the deposited data

How the results depend on the processing

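No difference of Amd1, Amd2, their sum, Sms or Oaz1 changed sign under the 12 alternatives run. For Amd1, Amd2, their sum and Oaz1 this was largely fixed in advance. Their groups did not overlap in scaled counts, so neither leaving out a library nor another pseudocount could change the sign. Filters, block and weights left each difference as it was. Odc1, Sat1 and Srm changed sign in 2 each, Oaz2 in 3, and Azin1, Paox and the Oaz1 sum in 1 each. Amd1 was at -9.54 with a pseudocount of 1, -7.49 with 10 and -2.78 with log2(FPKM + 1), where Amd2 was at 3.24; these scales weigh values near 0 differently by construction. Leaving out each library in turn gave -9.09 to -8.46 for Amd1, 4.58 to 10.13 for Amd2 and 0.56 to 1.27 for their sum. The count of genes called ranged over 0 to 1061 higher and 0 to 78 lower, and of pathway genes over 0 to 5 higher and 0 to 1 lower, the top of each range being without cHet_0. In the main setting, 28 pathway genes and 14297 genes in all were tested. The fit without cHet_0 leaves cHet_1, the library that stood apart, as the whole cHet group. Its spread comes from cKO alone, so its counts are not read as a difference between the groups. With log2(FPKM + 1), 1 gene was called higher and 1 lower, neither of them a member. With the replicate block on the column number, 0 genes were called and the Amd sum stayed at 0.92. The labels do not say that libraries of the same number belong together, and the correlation of their deviations in scaled counts was 0.05. Their FPKM footing did go with the number, as given above. Median-of-ratios rescaling moved the median difference over all genes by -0.10. Summing Oaz1 with Oaz1-ps was added after the data were seen. The values of Amd1 in cKO and of Amd2 and Paox in cHet_1 rest on few reads, for which the cause was not tested, and each group holds only 2 libraries.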

Other observations

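Other rows of the tables were also at fractional reads, and some pairs of them summed to whole reads. Searching, after the Amd values were seen, among 211 rows that were over 0.03 of a read from a whole number in at least 3 libraries and under 20000 reads, 48 pairs summed to whole reads, within 0.02, and to at least 100 reads in all 4 libraries. Some of these are overlapping genes, and some join 1 gene with several others, such as Gnai3 with Calm3, G3bp2 and Pja1. Which sums are whole by chance was not tested, so the 48 are not all known to share reads. In 5 pairs the same row held over 90% of the sum in every library. Amd1 and Amd2 were the only 1 of the 48 in which the row above 90% differed between the groups and was the same within each group. The set was selected on the values of this very pair, so this is a description and no support for a difference. Oaz1-ps was over the limit of 20000 reads, so Oaz1 with Oaz1-ps was not among the pairs searched. In 2 pairs the row above 90% differed within a group. The alpha globin genes Hba-a1 and Hba-a2, also near-identical copies, are 1 of them: Hba-a1 held 99.7% of the sum in cKO_0 and 0.00127% in cKO_1, against 2.82% in cHet_0 and 0.225% in cHet_1. The other is Gm5512 and Rmnd1, with Gm5512 at 34.7% in cKO_0 and 98.7% in cKO_1, against 0.31% in cHet_0 and 96.4% in cHet_1.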
